A study of Mus musculus with 9 samples.

Results

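Promoter accessibility was followed at 10 genes of myeloid differentiation in HPC7 cells that carried Snai1 or an empty vector. The genes were Cebpb, Cebpe, Spi1, Csf3r, Cd14, Ltf, Fcgr3, Cd68, Ms4a3 and Gzmb. Each had 1 window, so the set holds 10 of the 10271 promoter windows of the authors' deposited table, which were assigned to 10188 genes. HPC7 is a mouse hematopoietic progenitor line, grown here in medium with serum and stem cell factor. All libraries were ATAC-seq libraries, made with the Tn5 transposase, which cuts and tags open DNA, and all cells had been transduced with the retroviral vector MIG. The 3 groups were MIG-EV, the empty vector, MIG-Snai1, a vector for wildtype Snai1, described for the series as FLAG-tagged, and MIG-mut5Snai1, a vector for a mutant, with 3 libraries each. The table compared MIG-Snai1 with MIG-EV (Snai1 and EV from here on), and the mutant was not analysed here. Snai1 came from a vector at a level that the sources used here do not give, and the labels name neither clones nor separate transductions, so the p-values reflect how far libraries of 1 group differed, and that may be technical. The 10 genes were picked with the change between Snai1 and EV already known. That change, its FDR and counts made from them are therefore given as description.

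Myeloid differentiation is the path by which blood progenitors become granulocytes, monocytes and macrophages. It is set up by a small group of transcription factors, chiefly PU.1, encoded by Spi1, and the C/EBP family. These switch on receptors for colony-stimulating factors and microbial products, and then the proteins of granules and lysosomes that phagocytes use against microbes. Snai1 is a zinc finger repressor that binds E-box sequences and is best known for silencing epithelial genes.

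The stretch just before the gene start is shown for the 7 members with an entry in RefSeq's promoter sequences (GRCm38.p6, the same coordinates as mm10), so that matches to motifs of Snail, PU.1, C/EBP and GATA factors, the last being regulators of blood progenitors, can be seen in place. Each sequence holds the 200 bases before the annotated start, 5' to 3' on the gene's strand. Capitals mark matches on either strand to the Snail E-box CACCTG, the PU.1 core GAGGAAG, the GATA core AGATAA or the C/EBP site TTNNGCAA. Entries for Cebpe, Spi1 and Cd14 were missing.
Cebpb (chr2:167688715-167688914, plus strand): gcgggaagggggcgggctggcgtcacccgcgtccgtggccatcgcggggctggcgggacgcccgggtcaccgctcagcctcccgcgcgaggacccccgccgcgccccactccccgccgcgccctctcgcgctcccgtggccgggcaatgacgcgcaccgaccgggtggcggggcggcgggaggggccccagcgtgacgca
Csf3r (chr4:126024459-126024658, plus strand): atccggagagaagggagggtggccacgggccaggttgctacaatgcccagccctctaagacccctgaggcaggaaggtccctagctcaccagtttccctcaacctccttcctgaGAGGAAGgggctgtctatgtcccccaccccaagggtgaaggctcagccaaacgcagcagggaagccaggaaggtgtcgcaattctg
Fcgr3 (chr1:171059404-171059603, minus strand): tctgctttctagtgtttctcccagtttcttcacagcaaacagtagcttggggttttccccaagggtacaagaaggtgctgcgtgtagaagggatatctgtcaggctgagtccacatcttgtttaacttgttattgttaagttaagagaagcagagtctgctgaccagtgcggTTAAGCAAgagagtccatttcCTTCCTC
Ms4a3 (chr19:11640852-11641051, minus strand): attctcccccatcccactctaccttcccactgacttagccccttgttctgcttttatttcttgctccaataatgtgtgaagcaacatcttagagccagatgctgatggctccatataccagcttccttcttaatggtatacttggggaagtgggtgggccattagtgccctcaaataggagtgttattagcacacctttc
Ltf (chr9:111019092-111019291, plus strand): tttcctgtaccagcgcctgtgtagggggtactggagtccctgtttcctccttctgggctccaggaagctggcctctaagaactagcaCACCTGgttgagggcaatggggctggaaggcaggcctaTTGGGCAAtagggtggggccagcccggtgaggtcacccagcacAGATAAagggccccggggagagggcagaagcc
Gzmb (chr14:56262335-56262534, minus strand): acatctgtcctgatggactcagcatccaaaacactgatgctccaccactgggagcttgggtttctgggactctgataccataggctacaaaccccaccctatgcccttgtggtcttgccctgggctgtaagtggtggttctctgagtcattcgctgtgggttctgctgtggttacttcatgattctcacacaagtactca
Cd68 (chr11:69666171-69666370, minus strand): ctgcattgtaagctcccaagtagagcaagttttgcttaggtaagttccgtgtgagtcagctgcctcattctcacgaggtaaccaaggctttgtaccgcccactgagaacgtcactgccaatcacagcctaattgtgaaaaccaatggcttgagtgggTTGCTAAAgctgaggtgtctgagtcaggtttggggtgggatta

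The Snail E-box was found in 1 of the 7 promoters, that of Ltf, where it began 113 bases before the start. Over the whole reference stretch of 300 bases, 250 before and 50 after the start, 20.2% of 32851 RefSeq promoters held it. The C/EBP site was found in 4 of the 7 (Fcgr3, Ltf, Cd68 and, 42 bases after the start and so outside the stretch shown, Ms4a3), against 10.8% of all promoters. The PU.1 core was found in Csf3r and Fcgr3, 2 of the 7, against 13.6%, and the GATA core in Ltf, 1 of the 7, against 11.2%. A match is a run of letters and was not tested as a binding site.

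The promoters split by base composition. Cebpb had a GC content of 80.7% and a ratio of observed to expected CpG of 1.03, above 88.7% of the 6641 RefSeq promoters whose start has a window. The other 6 had CpG ratios between 0.00 in Ms4a3 and 0.33 in Csf3r, all under the 10th percentile of those 6641 promoters (0.36), whose median was 0.80. Over all 32851 RefSeq promoters the median was lower, at 0.38, and Csf3r was not far under it. CpG-poor promoters are, as background, common at genes used in few cell types, and CpG islands at genes used in many.

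At the level of the group values, myeloid genes moved in both directions. FDR 0.05 was passed by 7 of the 10 members according to the authors' deposited table, against 29.9% of all windows: 5 were higher in Snai1 (19.6% of all windows) and 2 lower (10.3%). The transcription factor genes Cebpb and Cebpe, the receptor gene Cd14, the membrane protein gene Ms4a3 and the protease gene Gzmb rose. The receptor gene Csf3r and the granule protein gene Ltf fell. Spi1, the low-affinity Fc receptor gene Fcgr3 and the lysosome gene Cd68 did not pass. Changes of at least 1 log2 unit that also passed were seen at 5 of the 10 windows and at 2.01% of all windows. Because the 10 genes were chosen on this comparison, nothing is read from these shares.

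**Figure D1:**
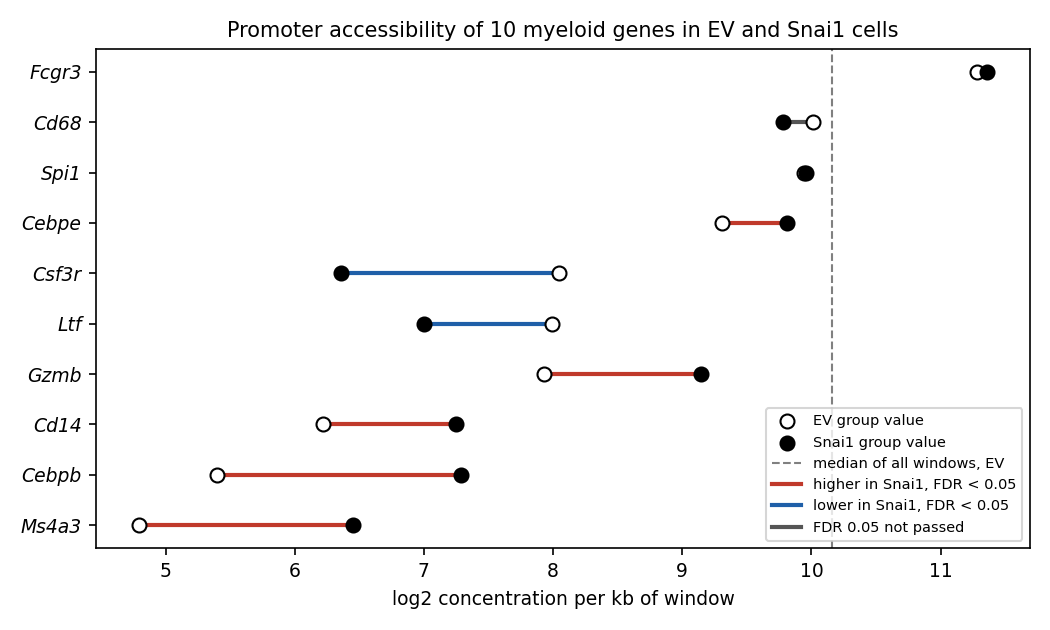
Log2 concentration per kb of window (x axis) of the 10 members, sorted by their EV value; open circles are the authors' EV group value, filled circles the Snai1 group value, and the connecting line is red, blue or grey for higher, lower or not passed at FDR 0.05. Only Fcgr3 lies above the median of all windows in EV (dashed), and the windows that moved lie at or below the fourth level from the top.

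The values are log2 concentrations, DiffBind's term for the normalized number of reads in a window averaged over the libraries of a group, so 2 to that power is a number of normalized reads. The table gives 1 such value per group and none per library. The error given with a change is a standard error worked back from the change and its deposited p-value (implied SE).

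Among the transcription factors, Cebpb changed most. It encodes C/EBP beta, which drives monocyte and macrophage genes and emergency granulopoiesis. Its window lay on the annotated 5' boundary of the gene (mm10, chromosome 2, 167687915 to 167689915). By the authors' deposited table its log2 concentration was 6.40 in EV and 8.29 in Snai1, that is 84.4 and 313.0 normalized reads. The change was 1.89 (3.71-fold, implied SE 0.19, FDR 9.82e-21), the 27th largest increase of all windows. Even so, in Snai1 the window was lower than all but 7.72% of windows of its width.

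Cebpe encodes C/EBP epsilon, which is needed for the late steps of granulocyte maturation. Its window (chromosome 14, 54712074 to 54713174), also on the annotated 5' boundary, had values of 9.45 in EV and 9.95 in Snai1 by the authors' deposited table, or 699.4 and 989.1 normalized reads. The change of 0.50 (implied SE 0.11, FDR 3.39e-05) was smaller than that at Cebpb. The other genes with a Cebp symbol and a window were named after their values were seen. Cebpd (0.14, FDR 0.114), Cebpg (0.14, FDR 0.135) and Cebpz (0.07, FDR 0.568) did not pass by the authors' deposited table. No window was assigned to Cebpa, the C/EBP family member that starts granulocyte commitment. Here and below, a gene without a window is only not listed, and its promoter was not measured as closed.

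Spi1 encodes PU.1, the master regulator of the myeloid lineage. Its window (chromosome 2, 91095797 to 91097797) lay 14423 bp inside the RefSeq gene boundary and had 10.94 in EV and 10.96 in Snai1 by the authors' deposited table, 1965 and 1992 normalized reads. The change was 0.02 (FDR 0.87). No implied SE could be worked back from so small a change; windows of like concentration had a median of 0.08.

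The receptors went different ways. Csf3r encodes the receptor for granulocyte colony-stimulating factor, the main growth signal of neutrophils. Its window (chromosome 4, 126023659 to 126025659) was centred on a RefSeq transcript start 1218 bp inside the gene boundary. By the authors' deposited table it fell from 9.05 in EV to 7.36 in Snai1, from 530.1 to 164.3 normalized reads. The change of -1.69 (implied SE 0.15, FDR 3.01e-27) was the 54th largest decrease of all windows. Other colony-stimulating factor receptor genes, named after their values were seen, had values of 0.04 (Csf1r, the macrophage factor receptor, FDR 0.88), 0.09 (Csf2rb, FDR 0.597) and 0.15 (Csf2rb2, FDR 0.427) by the authors' deposited table, and none of these passed.

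Cd14 encodes the co-receptor that hands bacterial lipopolysaccharide to Toll-like receptors on monocytes. Its window (chromosome 18, 36726715 to 36727815, on the gene's 5' boundary) had 6.36 in EV and 7.39 in Snai1 by the authors' deposited table, 82.1 and 167.7 normalized reads. It rose by 1.03 (implied SE 0.23, FDR 9.48e-05). Tlr4, the receptor of that complex, had a value of -0.13 (FDR 0.242) by the authors' deposited table, and Tlr2 fell by 0.47 (FDR 5.59e-04). Ly96, which encodes MD-2, the protein that binds lipopolysaccharide on Tlr4, rose by 0.23 (FDR 0.0037) by the authors' deposited table. Set against nearest windows, its value of 0.13 did not pass (adjusted p 0.229, normal test with the implied SE). The 3 genes were named after their values were seen.

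Fcgr3 encodes a low-affinity receptor for IgG found on myeloid and natural killer cells. Its window (chromosome 1, 171059303 to 171060403) was centred on a RefSeq transcript start 6512 bp inside the gene boundary. It was the most open of the 10, with 11.42 in EV and 11.50 in Snai1 by the authors' deposited table, 2740 and 2896 normalized reads. The change was 0.08 (FDR 0.574). As for Spi1, the median implied SE of windows of like concentration, 0.08, stands in for its own. Fcgr3 has relatives of close sequence beside it, and the sources used here do not give how reads that map to several places were treated.

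Ms4a3 encodes a four-pass membrane protein of granulocyte and monocyte progenitors. Its window (chromosome 19, 11640751 to 11641851, on the 5' boundary) was the least open of the set. By the authors' deposited table it had 4.93 in EV and 6.59 in Snai1, only 30.5 and 96.3 normalized reads. It rose by 1.66 (implied SE 0.27, FDR 1.56e-08). The window was lower in EV than all but 0.219% of windows of its width, and it was the only 1 of 21 Ms4a genes with a window.

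The granule protein genes moved apart. Ltf encodes lactoferrin, an iron-binding protein of the secondary granules of neutrophils. Its window (chromosome 9, 111018292 to 111020292, on the 5' boundary) fell from 8.99 to 8.0 by the authors' deposited table, from 508.5 to 256.0 normalized reads. The change was -0.99 (implied SE 0.14, FDR 7.48e-11). Gzmb encodes granzyme B, a serine protease of cytotoxic lymphocytes that is also made by mast cells and some myeloid progenitors. Its window (chromosome 14, 56262160 to 56263260, centred 74 bp inside the 5' boundary) rose from 8.07 to 9.28 by the authors' deposited table, from 268.7 to 621.7 normalized reads. The change was 1.21 (implied SE 0.29, FDR 2.68e-04). It was the only 1 of 10 granzyme genes with a window.

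Cd68 encodes a lysosomal glycoprotein of macrophages. Its window (chromosome 11, 69666070 to 69667170, on the 5' boundary) had 10.15 in EV and 9.92 in Snai1 by the authors' deposited table, 1136 and 968.8 normalized reads. The change was -0.23 (implied SE 0.11, unadjusted p 0.0384, FDR 0.101). Set against the median change of all windows, 0.08, it was -0.31 and passed a repeated test (adjusted p 0.0286, normal test with the implied SE and Benjamini-Hochberg adjustment over all windows). Set against the median of its 50 nearest windows, it was -0.295 and did not pass the same normal test (adjusted p 0.056).

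The 7 members that passed had EV values from 4.93 to 9.45, and the 3 that did not pass had 10.15 to 11.42. By concentration over both groups, a measure that includes the Snai1 value, the 7 lay among the lowest 20% of windows (under 9.80) and the 3 above it. Nothing is read from this split, since the members were chosen on the change, and over all windows passing was about as frequent in both bands. By the authors' deposited table, 31.2% of the 2040 windows in that low band passed, against 29.6% of the rest. Large changes were more frequent there, since 8.82% of the low windows passed with a change of at least 1 log2 unit, against 0.316% of the rest. Errors were also larger there, with a median implied SE of 0.13 against 0.08.

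**Figure D2:**
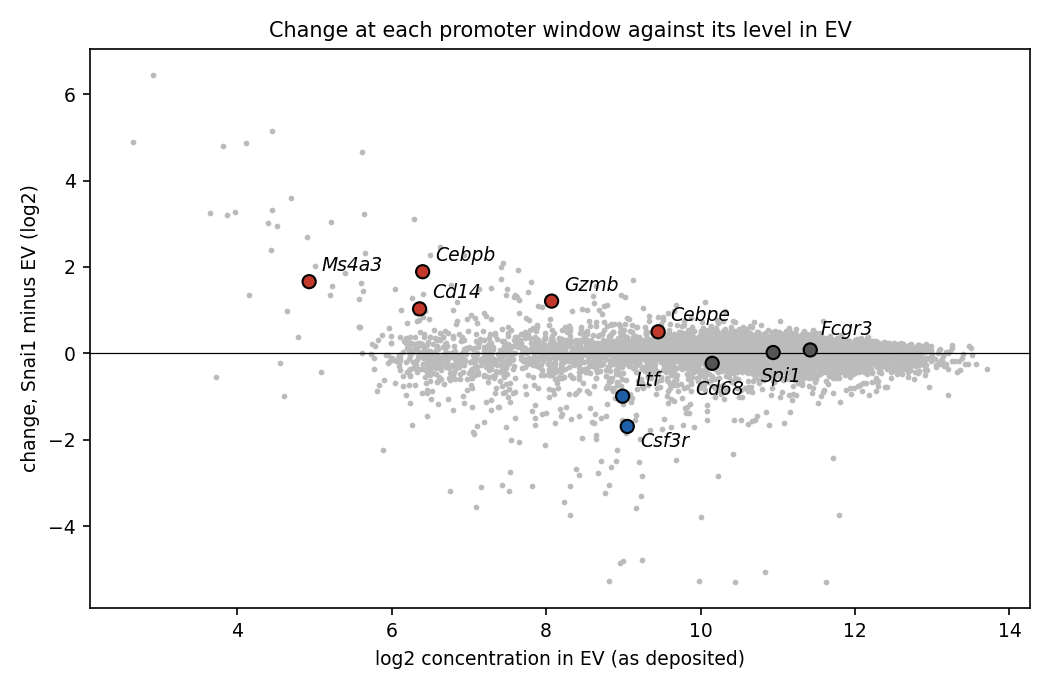
Change between the Snai1 and EV group values (y axis, log2) against the log2 concentration in EV (x axis) for all 10271 windows (grey) and the 10 members (red higher, blue lower, dark grey not passed at FDR 0.05). The spread of changes widens towards low concentrations, where Ms4a3, Cebpb and Cd14 lie.

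Compared with windows of the same width and within 0.5 log2 units in EV, most members that passed stood near the edge. For Cebpb, 2 of 145 such windows rose as far or further, and for Gzmb 4 of 229. For Cd14 the count was 3 of 109 and for Cebpe 16 of 872. For Csf3r, 6 of 253 fell as far or further, and for Ltf 13 of 238. Ms4a3 had only 5 windows of like level, and 3 of them rose at least as far. These counts are description, since the members were chosen on this change.

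Per kb of window, which allows windows of 2001 and 1101 bp to be compared, the level in EV ran from 11.28 at Fcgr3 through Cd68 (10.01), Spi1 (9.94), Cebpe (9.31), Csf3r (8.05), Ltf (7.99), Gzmb (7.93), Cd14 (6.22) and Cebpb (5.40) to 4.79 at Ms4a3. In Snai1 the per kb span was narrower, from 11.36 at Fcgr3 to 6.36 at Csf3r, a range of 5.0 against 6.49 in EV. In the per kb order Csf3r went from place 5 to place 10 and Cebpb from place 9 to place 6. By percentile among windows of its own width in Snai1, Csf3r (4.91) stood above Cd14 (4.84) and Ms4a3 (2.66). By size of change, neighbours in the order Cebpb, Ms4a3, Gzmb and Cd14 differed by 0.49 to 1.15 combined implied SEs, so their order is not set beyond their error. The step from Cd14 to Cebpe was 2.09 combined SEs, that from Cebpe to Fcgr3 3.23, that from Cd68 to Ltf 4.24 and that from Ltf to Csf3r 3.40. Fcgr3, Spi1 and Cd68 followed each other by less than 2 combined SEs (0.56 and 1.86). All these steps are description, since the members were chosen on this change. Those that include Fcgr3 or Spi1 use the median implied SE of windows of like concentration.

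The flanking windows did not pass at Cebpb, Csf3r, Cd14 and Ms4a3. At Cebpb, the windows on its flanks, Tmem189 (27.4 kb away, 0.08) and Ptpn1 (243.4 kb, -0.03), did not pass by the authors' deposited table, and the median of the 50 nearest windows was -0.005. The endogenous Snai1 gene, singled out after its values were seen, lies 150.7 kb from Cebpb with 2 windows between them, and its window changed the opposite way, from 9.81 to 8.43 (-1.38, implied SE 0.13, FDR 4.17e-26) by the authors' deposited table. Csf3r was isolated, with Zc3h12a (896.8 kb, -0.07) and Mrps15 (22.3 kb, -0.06) on its flanks, neither of which passed, and of 22 windows within 1 Mb 0 were higher and 1 lower. At Cd14, Apbb3 (47.4 kb, 0.10) and Tmco6 (8.26 kb, 0.08) did not pass by the authors' deposited table. Further out, within 1 Mb of Cd14, 5 of 22 windows were higher and 2 lower, with changes from -1.75 to 1.01, so another window there rose about as far as Cd14.

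Ltf and Cebpe had a flanking window that moved with them. Als2cl, 139.1 kb from Ltf, fell by the same 0.99 (FDR 2.27e-04) by the authors' deposited table, and Ccrl2, a chemokine receptor-like gene 38.2 kb to the other side, rose by 0.54 (FDR 0.00437). Slc7a8, an amino acid transporter gene 69.7 kb from Cebpe, rose by 0.42 (FDR 0.00241) by the authors' deposited table, while 1700123O20Rik at 26.0 kb had -0.01. Around Gzmb the nearest windows were far, Khnyn at 377.3 kb (0.18, FDR 0.219) and Cenpj at 309.6 kb (0.20, FDR 0.0271), and within 1 Mb 11 of 30 windows were higher and 1 lower, with a median of 0.19. Ms4a3 had Ccdc86 at 691.6 kb (0.06) and Stx3 at 178.6 kb (0.32, FDR 0.0585), and neither passed by the authors' deposited table. Within 1 Mb of Ms4a3, 3 of 13 windows were higher and 0 lower, with changes up to 1.36.

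**Figure D3:**
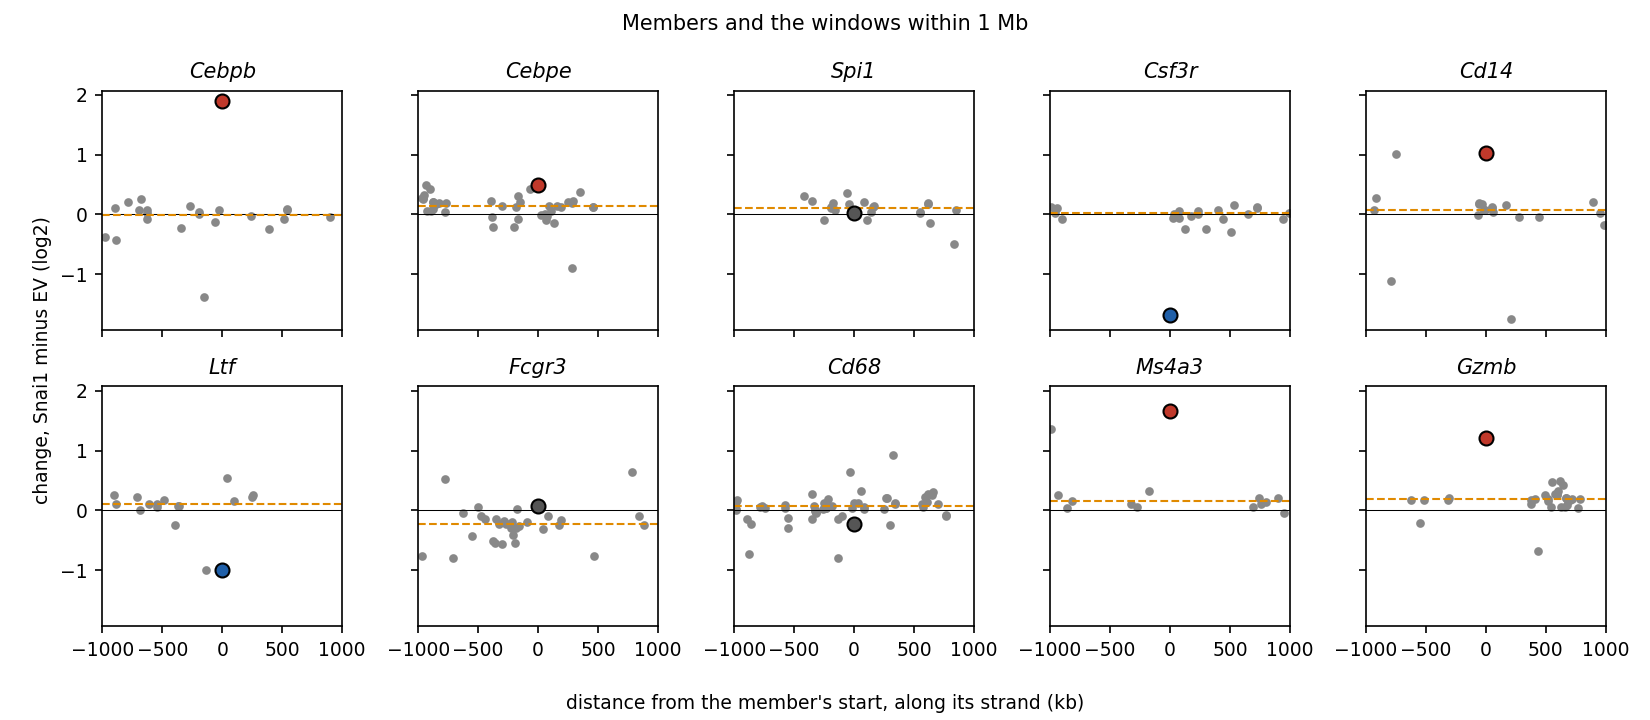
Change between Snai1 and EV (y axis, log2) of each member (large point, coloured as by its call) and of all windows within 1 Mb (grey), by distance along the member's strand (x axis, kb); the dashed orange line is the median of the 50 nearest windows. Cebpb and Csf3r stand far from all windows around them, and most of the windows around Fcgr3 lie under 0.

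Fcgr3 was the exception, since many windows around it passed and it did not. Within 1 Mb, 20 of 33 windows were lower and 2 higher by the authors' deposited table, with a median of -0.22. The flanking Fcgr4, another IgG receptor gene, fell by 0.31 (FDR 0.00205), and Sdhc, a mitochondrial gene, fell by 0.19 (FDR 0.0181). Set against the median of its 50 nearest windows, -0.22, the change at Fcgr3 was 0.30 and passed a repeated test (adjusted p 0.0012, normal test). That test used the median implied SE of windows of like concentration, 0.08, in place of one of its own, and the call depends on it. In the same neighbourhood, and named after their values were seen, Fcer1g, the shared signalling chain of Fc receptors, had 0.02 (FDR 0.856) and Fcgr2b, the inhibitory IgG receptor gene, -0.10 (FDR 0.486) by the authors' deposited table. Set against nearest windows, Fcer1g was at 0.24 and passed like Fcgr3 (adjusted p 0.0145, normal test). It too used a median implied SE in place of its own. Fcgr2b (0.12, adjusted p 0.519) did not pass that test. Centring on nearest windows left the 7 deposited calls of members in place. Cebpb was at 1.90, Cebpe at 0.36, Cd14 at 0.96, Ms4a3 at 1.51, Gzmb at 1.02, Csf3r at -1.72 and Ltf at -1.09. With Fcgr3 that made 6 higher and 2 lower members, where 5.08% and 8.44% of all windows were higher and lower and 13.5% passed in all.

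**Figure D4:**
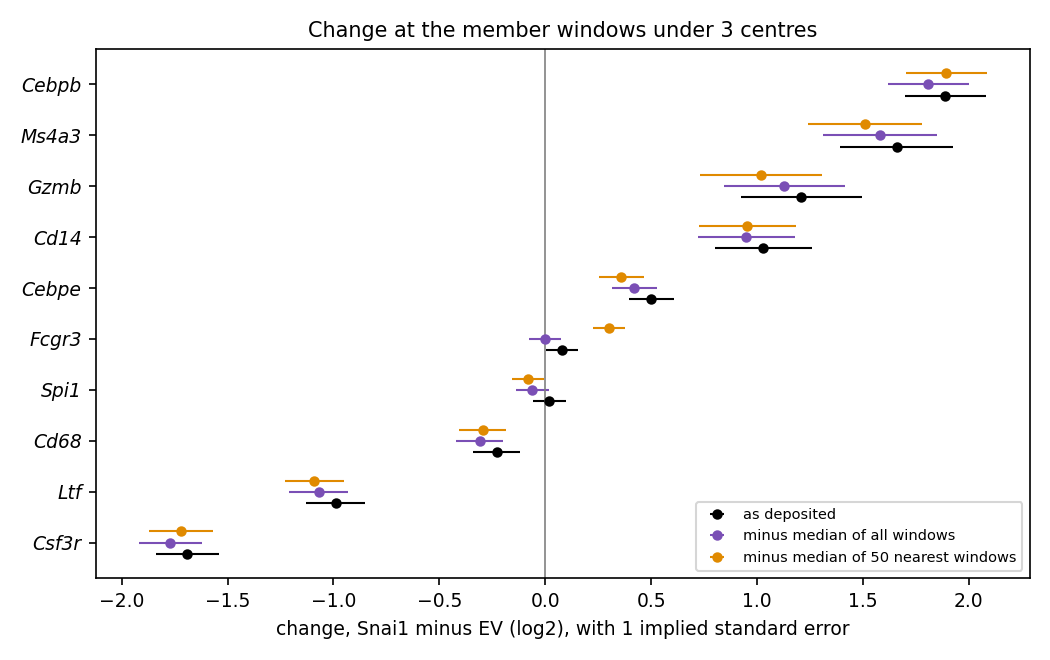
Change at the 10 members (x axis, log2, bars of 1 implied standard error) as deposited (black), after subtracting the median change of all windows (purple) and after subtracting that of the 50 nearest windows (orange). For Spi1 and Fcgr3 the bar is the median of windows of like concentration. The 7 members that passed keep their direction under all 3, Spi1 turns from 0.02 to -0.06 and -0.08, and Fcgr3 moves furthest, from 0.08 to 0.30.

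A wider list of 179 myeloid genes in 5 groups was read to place the members. Of these, 125 had a window, 54 had none, and 1 window per gene was used, that with the highest concentration. By the authors' deposited table, genes that rose numbered 37, with 18 that fell and 70 that did not pass, so 44.0% passed against 29.9% of all genes with a window; without the 10 members the figure was 41.7% of 115. The median change was 0.10, close to the 0.08 of all windows. Set against nearest windows, 16 were higher and 12 lower, 22.4% against 13.5% of all windows (5.08% higher, 8.44% lower). Without the members, 10 were higher and 10 lower of 115, so 8 of these 28 calls were members. The list includes the members and was drawn up with earlier results of these data known, so its share is a description only.

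Transcription factor genes were split. Of 29 with a window, 9 rose and 6 fell by the authors' deposited table (51.7% called, against 29.9% of all windows, 19.6% higher and 10.3% lower), with 5 higher and 3 lower against nearest windows. Without the members, 50.0% of 26 were called, with 3 higher and 3 lower against nearest windows. Besides the C/EBP genes, Gfi1, a repressor needed for neutrophil maturation, fell by 0.80 (implied SE 0.14, FDR 3.16e-07) by the authors' deposited table. Myc, which drives progenitor growth, rose by 0.37 (FDR 1.40e-06). Ets2 (-0.68) and Runx1 (-0.61), both on chromosome 16 where the nearest windows had a median of -0.57, passed by the authors' deposited table but not against those neighbours. Cebpd, Cebpg and the repressor gene Zeb2 (0.18, FDR 0.183) came closest among those that did not pass.

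Receptor and surface genes were also split, with 11 of 34 higher and 6 lower by the authors' deposited table (50.0% called, against 29.9% of all windows), and 6 and 4 against nearest windows (5.08% and 8.44% of all windows). Leaving the members out, 46.7% of 30 were called, and 3 were higher and 3 lower against nearest windows. Clec4e, a lectin receptor of macrophages, rose by 0.64 (FDR 2.58e-08), and the integrin gene Itgal rose by 0.37 (FDR 4.30e-04) by the authors' deposited table. Against nearest windows Clec4e passed and Itgal did not (0.21, adjusted p 0.111, normal test with the implied SE). Trem1, an activating receptor of neutrophils and monocytes, fell by 0.90 (implied SE 0.18, FDR 9.36e-06). Cxcr4 (-0.19, FDR 0.0725), the adaptor gene Tyrobp (0.65, FDR 0.0755) and the chemokine receptor gene Ccr1 (-0.28, FDR 0.151) did not pass by the authors' deposited table.

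Granule protein genes were mostly without a window, and so only not listed, 22 of 33, among them Elane, Ctsg, Lcn2, Camp and S100a8. Of the 11 with one, 4 rose and 2 fell by the authors' deposited table (54.5% called, 44.4% of 9 without the members, against 29.9% of all windows), with 3 higher and 2 lower against nearest windows (2 and 1 without the members). S100a4, a calcium-binding protein gene, rose by 0.66 (FDR 9.33e-12), and windows inside the proteoglycan gene Srgn (0.47, FDR 3.05e-05) and the protease inhibitor gene Serpinb1a (0.42, FDR 0.0162) rose. Serpinb1a did not pass against nearest windows (0.29, adjusted p 0.186, normal test with the implied SE). A window inside Mmp9, which encodes gelatinase B, fell by 0.31 (FDR 0.0131) by the authors' deposited table. Mpo, the myeloperoxidase gene, had a value of -0.53 with a wide error (implied SE 0.41, FDR 0.332), and Cst7 (0.39, FDR 0.226) and Anxa1 (0.31, FDR 0.091) did not pass.

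Among 25 oxidase and lysosome genes with a window, 6 rose and 3 fell by the authors' deposited table (36.0% called, against 29.9% of all windows), with 2 higher and 3 lower against nearest windows. Lgmn, a lysosomal protease gene, fell by 1.56 (implied SE 0.22, FDR 4.01e-11), from 10.67 to 9.11, the largest decrease in this group. Ctsc, which encodes the protease that activates granule proteases, rose by 0.51 (FDR 1.46e-08) by the authors' deposited table. The related factors Mitf and Tfeb, which drive lysosome genes, went opposite ways, 0.38 (FDR 9.03e-08) and -0.40 (FDR 5.85e-05). Lamp2, a lysosome membrane protein gene, rose by 0.30 (FDR 0.00987) by the authors' deposited table. Against nearest windows its value of 0.255 did not pass (adjusted p 0.0576, normal test with the implied SE). Besides Cd68, Ncf1 (0.20, FDR 0.105) did not pass by the authors' deposited table.

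Of 26 signalling genes with a window, 7 rose and 1 fell by the authors' deposited table, and this share of 30.8% was near the 29.9% of all windows. In this group 0 were called against nearest windows (normal test with the implied SE; 4 at an unadjusted p under 0.05). Lyn, a Src family kinase gene, rose by 0.73 (FDR 1.44e-16) in a neighbourhood with a median of 0.54. Hcls1 fell by 0.35 (FDR 3.72e-05), with neighbours at -0.40, and Socs1 rose by 0.27 (FDR 0.0013), with neighbours at 0.37, both on chromosome 16. Coro1a (0.30), Btk (0.27) and Myd88 (0.23) also rose by the authors' deposited table, while Tnf (0.21, FDR 0.10), Was (0.20, FDR 0.108) and Syk (0.17, FDR 0.109) did not pass.

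**Figure D5:**
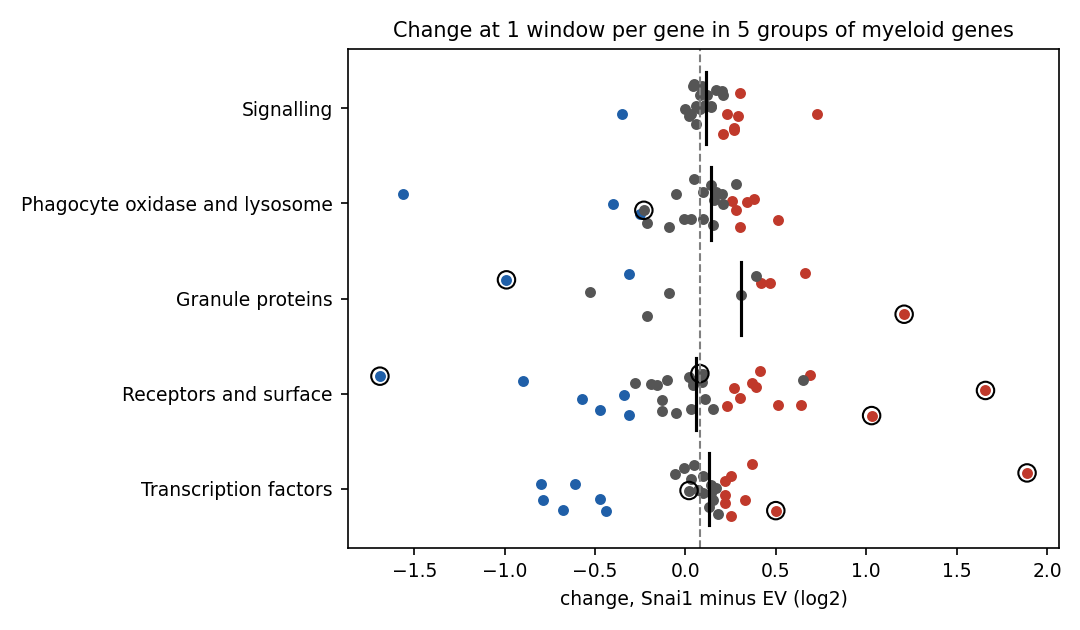
Change between Snai1 and EV (x axis, log2) of 1 window per gene in 5 groups of myeloid genes; red points passed as higher, blue as lower, dark grey did not pass, rings mark the 10 members, black bars the group medians and the dashed line the median of all windows. The members include the outermost points of 3 of the groups, and Lgmn, which is no member, is the lowest of the lysosome group.

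The windows most like each member that passed were looked up by distance in the plane of the EV and Snai1 values, which rests on 2 group values only. Nearest to Cebpb were Clec4a2 (distance 0.37) and Acot6 (0.51), to Csf3r Lima1 (0.17) and Apbb2 (0.21), and to Ltf Ccm2l (0.03) and Esr2 (0.11). Cd14 was nearest to Cd28 (0.07) and P2ry10b (0.14), Ms4a3 to Msantd3 (0.55) and Lrrk2 (0.70), and Gzmb to Cdh17 (0.03) and Itgax (0.26). Cebpe was nearest to Fancd2 (0.08) and to Morrbid, whose values of 9.45 and 9.95 were the same. Morrbid nonetheless had an FDR of 0.179 by the authors' deposited table, against 3.39e-05 for Cebpe. Equal group values thus came with unequal implied SEs, 0.29 at Morrbid and 0.11 at Cebpe.

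The implied SE reflects the spread between libraries only indirectly, since no value per library was available. Relative to the median of windows of like concentration it was 1.98 times as large at Gzmb, and between 0.97 and 1.33 times at the other 7 members for which it could be worked back. In the wider list, 7 of 95 genes (7.37%) had a ratio of at least 2, against 1.81% of 6859 windows. Mpo, at 5.05, had the second largest of all, and Tyrobp (3.27), Cst7 (3.06), Il3ra (2.59), Rac2 (2.53), Lgmn (2.45) and Il1r2 (2.18) were the others. For these genes the implied SE was larger than was usual at their concentration. The change of -0.53 at Mpo, with an implied SE of 0.41, did not pass (FDR 0.332).

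Windows of other lineages put the labelled cell type in view, though a gene without one is only not listed. Of 16 progenitor markers, 14 had a window, among them Kit (11.57 in EV), Lyl1, Tal1 and Gata2, and Erg and Lhx2 had none. Fibroblast markers had a window at 2 of 10 genes and lymphoid markers at 2 of 12, of which Notch1 changed by -2.67 and Gata3 by 0.39 by the authors' deposited table. Erythroid and megakaryocyte markers, by contrast, had a window at 9 of 13 genes. Of these, Epor (0.34, FDR 0.0147) and Itga2b (0.30, FDR 3.27e-04) rose, Tfrc (-0.43, FDR 8.55e-07) fell and 6 did not pass by the authors' deposited table. Set against nearest windows, Itga2b passed (0.265, adjusted p 0.0034, normal test with the implied SE). Epor (0.255, adjusted p 0.132) and Tfrc (-0.02, adjusted p 0.918) did not pass that test. Tfrc lies on chromosome 16, where its nearest windows had a median of -0.41. Of 5 mast cell and basophil genes with a window, Gzmb and Mitf rose and Cd200r3 (-0.60) fell by the authors' deposited table. Hdc (0.17, FDR 0.553) and Cpa3 (0.21, FDR 0.612) did not pass, and 6 had no window. Cd200r3 is also on chromosome 16, with nearest windows at -0.675. Set against them, its value of 0.075 did not pass (adjusted p 0.841, normal test with the implied SE). EV values of the 5 genes ranged from 6.58 at Hdc to 10.91 at Mitf. The part of a shift between cell types in the change at Gzmb was not tested. In such bulk libraries, fewer cells with an open promoter and a less open promoter in every cell cannot be told apart, and accessibility is not expression.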

How the data were processed

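ATAC-seq was done on 9 HPC7 libraries, 3 in each of 3 groups. The submitters' processing notes name DiffBind, Picard, Bowtie2 and fastp, and mm10 as the build; the sources used here give no versions, peak caller, Tn5 shift, counting rule or scaling. Reads per library are unknown, so depth sets no interval. The authors deposited 1 table of EV against Snai1, with log2 concentrations per group, a log2 fold (EV minus Snai1, turned round here), a p-value and an FDR per window, per the file headers; 10274 rows less 3 repeats left 10271 windows. The deposited log2 fold equalled the difference of the group values within 0.01, and the deposited FDR a Benjamini-Hochberg adjustment of the p-value within 0.00134. With no value per library, no count model or test over libraries was run.

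Windows of 2001 bp were read as 1000 bp either side of a plus-strand start and those of 1101 bp as 1000 bp before to 100 bp after a minus-strand start; 6641 such starts matched a RefSeq transcript start exactly. A window took the gene with its 5' boundary within 1000 bp on that strand (8957), else the gene spanning it (1276), and 38 had none. The implied SE is the change over the normal deviate of p; windows changed by less than 0.1, or with p of 0 or 1, took the median of 1 of 20 bins of concentration. Centred changes were tested again with it. A simulation with normal errors and the same shift at every window ran this test for the median of all windows only. Its p-values came from the same normal rule, so it cannot show how the test fares on the deposited p-values. Tests against nearest windows or windows of the same width were not simulated. Alternatives were 3 centres (all windows, 50 nearest, same width), an FDR of 0.01, leaving out the lowest 20% of concentration, a 5' boundary within 100 bp and the window with the smallest p. Python 3.11.15 and scipy 1.17.1 were used. The members and lists were chosen with earlier results of these data known. Named genes of each group were the up to 6 with the smallest p that passed and up to 3 that did not; for members that passed, also the flanking and the 2 most like windows. Some genes under this rule are not reported here.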

Additional observations from a re-analysis of the deposited data

How the results depend on the processing

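No paired analysis was possible because the table holds 1 value per group; for the same reason no replicate could be left out. The 7 members that passed kept direction and call under all 3 centres, an FDR of 0.01 and a 5' boundary within 100 bp. All 7 fall away when the lowest 20% of windows are left out, so that 0 of the 3 members left passed the authors' DiffBind test (1, Cd68, at an unadjusted p under 0.05). The change at Spi1, which did not pass, turned from 0.02 to -0.06, -0.08 and -0.07 (all windows, nearest windows, same width). Fcgr3 passed only against nearest windows, with the median SE of windows of like concentration in place of its own. Cd68 passed against all windows (-0.31) and against windows of its width (-0.30, adjusted p 0.0358, normal test with the implied SE). It did not pass against nearest windows (-0.295, adjusted p 0.056, same test).

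Among all windows the 3075 calls became 1389 against nearest windows and 1947 at an FDR of 0.01; in the wider list the 55 calls became 28 against nearest windows and 35 without the lowest 20%, where 87 of its 125 genes were left and the share called was 40.2% against 44.0%. The share of calls that were higher depended on the centre: 65.5% as deposited, 34.4% against all windows, 37.6% against nearest windows and 34.3% against windows of the same width for all windows, and 67.3%, 45.9%, 57.1% and 47.5% for the wider list. Low concentration limits Ms4a3, Cd14 and Cebpb most, with 30.5, 82.1 and 84.4 normalized reads in EV.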
